A study of Oryza sativa with 8 samples.

Results

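The short arms of rice chromosomes 4 and 10 are largely heterochromatic in cytology. Peaks called on them in the COM1 line, which carries MYC-tagged OsChz1, are described here. A peak of the COM1 list was counted to the short arm when its midpoint lay between 0 and 7.7 Mb of chromosome 4 or between 0 and 6.2 Mb of chromosome 10. By this rule 480 of 11356 COM1 peaks (4.23%) were placed on the short arms, 270 on chromosome 4 and 210 on chromosome 10. They were compared with the 770 COM1 peaks on the long arm of chromosome 4 and the 409 on that of chromosome 10. Each long arm was taken from 4 Mb beyond the border of the short arm up to the last listed peak end. The 4 Mb between the arms, around the centromere, were left out. The lists hold no histone mark, no DNA methylation and no gene, so that the heterochromatic label of the arms was not checked against these data.

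The peaks came from anti-MYC ChIP-seq of rice (Oryza sativa) seedlings at 30 days, grown in 14 h of light at 30 °C and 10 h of darkness at 28 °C. COM1 (OsChz1-MYC/oschz1) is 1 complemented line, in which MYC-tagged OsChz1 was expressed from the native OsChz1 promoter in the oschz1-1 background. The control was the oschz1-1 mutant, a CRISPR/Cas9 allele with a premature stop codon that carries no tagged protein, so that its peaks give the background of the antibody. Each genotype had 2 ChIP and 2 input libraries, which makes 8 libraries in 4 groups. The deposited data were 1 peak list for each genotype and the authors' list of regions where the ChIP signal of COM1 exceeded that of oschz1-1, named differential regions below. The study defined OsChz1-occupied peaks after removing background with oschz1-1, and the differential list matches that set in number, whereas the COM1 list holds the peaks of the tagged line before this step. Of all COM1 peaks, 42.8% overlapped a differential region. None of the lists names a replicate, a peak height or a read number. The depth behind a peak is therefore unknown, and no difference below could be set against the spread between replicates. Intervals are 95% intervals that cover the counting of peaks only. They assume that peaks fall independently and are too narrow where peaks cluster, as the window counts show for the long arms. No p-value is given. All positions are 1-based on the MSU7 assembly.

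OsChz1 contains a CHZ domain, named after the yeast histone chaperone Chz1, and binds H2A-H2B as well as dimers with the variant H2A.Z in place of H2A. A histone chaperone escorts histones and keeps them from unwanted contacts with DNA while nucleosomes are assembled or taken apart. In plants, nucleosomes with H2A.Z are typical of gene starts and rare in methylated heterochromatin. Heterochromatin is rich in transposable elements, compact and mostly silent. The comparison asked whether peaks of an H2A/H2A.Z chaperone were sparser there.

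The density of COM1 peaks on the short arms was at or slightly above that of the long arms, by less than the counting error. The short arm of chromosome 4 held 35.1 peaks per Mb (exact Poisson interval 31.0 to 39.5), and its long arm held 32.4 (30.1 to 34.7). The short arm of chromosome 10 held 33.9 peaks per Mb (29.4 to 38.8), and its long arm held 31.6 (28.6 to 34.8). The ratio of short to long arm was thus 1.08 on chromosome 4 (0.940 to 1.25) and 1.07 on chromosome 10 (0.904 to 1.27), and both intervals include 1. Pooled over both chromosomes the ratio was 1.08 (0.966 to 1.20). Differential regions alone gave another picture on chromosome 4, with 18.2 per Mb on the short arm (15.3 to 21.5) and 13.4 on the long arm (12 to 15), a ratio of 1.35 whose interval excludes 1 (1.1 to 1.65). Among wide peaks only, at or above the median COM1 width, it was 1.29 and the interval included 1 (0.960 to 1.71). On chromosome 10 differential regions numbered 14.2 and 14.7 per Mb, a ratio of 0.968 (0.743 to 1.25). Each arm held as many differential regions as differential COM1 peaks. These ratios thus combine the peak density with the differential share given below and are not a separate observation. Peaks covered 1.35% of the short arm of chromosome 4 and 1.29% of that of chromosome 10, compared with 1.25% and 1.20% of the long arms. The densities refer to the whole span, since unknown bases and sequence without uniquely mapped reads were not analysed here.

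The first stretch of the same length on the other 10 chromosomes gave a second comparison. Within the first 7.7 Mb, these chromosomes held between 17.3 peaks per Mb on chromosome 2 and 35.2 on chromosome 6, with a median of 29.4. The short arm of chromosome 4 lay above 9 of the 10. Within the first 6.2 Mb the range was 17.1 to 34.7 peaks per Mb with a median of 29.2, and the short arm of chromosome 10 also lay above 9 of the 10, with chromosome 6 again the exception. Only these first stretches were ranked, not the opposite chromosome ends. The centromeres of the other chromosomes were not located or left out, so that a first stretch can include one, unlike the short arms.

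Along the short arms the peaks were found in every 1 Mb window. In the 7 full 1 Mb windows of chromosome 4, counted from the chromosome end, 37, 43, 32, 28, 40, 24 and 44 peaks were found. In the 6 full windows of chromosome 10, 34, 30, 35, 43, 28 and 31 peaks were found. The densest windows were located from 6000001 to 7000000 on chromosome 4 and from 3000001 to 4000000 on chromosome 10, and the sparsest from 5000001 to 6000000 and from 4000001 to 5000000. When each arm was cut in the middle, the outer and inner parts had 35.8 and 34.3 peaks per Mb on chromosome 4 and 33.9 each on chromosome 10.

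**Figure D1:**
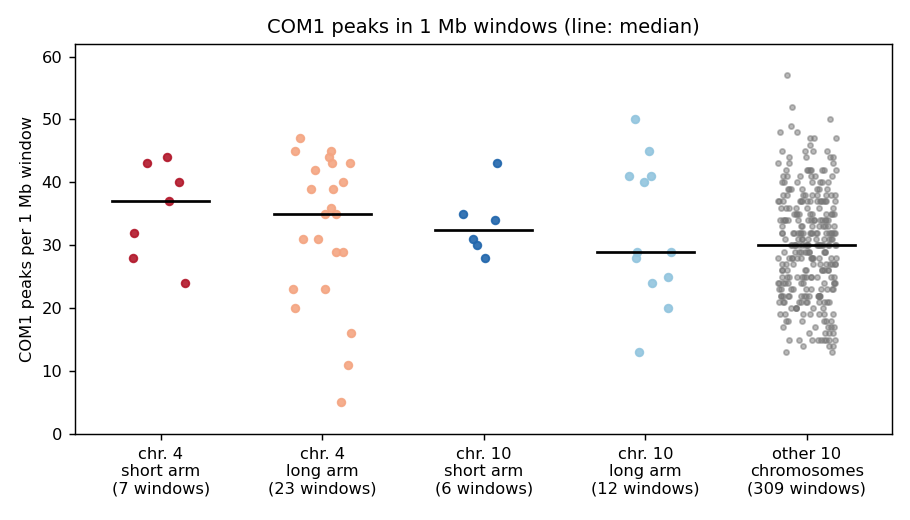
COM1 peaks in each full 1 Mb window (y axis, number of peaks) of the short and long arms of chromosomes 4 and 10 and of the other 10 chromosomes; each point is a window and the line is the median. The 13 short-arm windows lie between 24 and 44 peaks, whereas the 35 long-arm windows reach from 5 to 50 peaks.

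The long arms were less even. Their windows held between 5 and 47 peaks on chromosome 4 and between 13 and 50 on chromosome 10. These ranges rest on 23 and 12 windows, those of the short arms on 7 and 6. A range widens with the number of windows. Of the 35 long-arm windows, 8 held fewer than 24 peaks (22.9%) and 5 more than 44 (14.3%), the limits of the 13 short-arm windows. By this choice of limits no short-arm window could lie outside them. On the other 10 chromosomes 25.2% of the windows held fewer than 24 peaks and 4.53% more than 44. The variance of the counts divided by their mean, which is 1 for peaks that fall independently and evenly, was 1.65 on the short arm of chromosome 4 and 0.845 on that of chromosome 10. It was 4.16 and 3.88 on the long arms. The long arm of chromosome 4 had 2 neighboring windows with 11 and 5 peaks, the third and the fourth from its border, and a value of 2.34 without them. Long-arm stretches with 7 and 6 windows, counted from the start of the arm, gave 6.09 and 2.81. That of chromosome 4 contains both sparse windows. All these values rest on few windows and have no interval. The even spread was not set apart from other chromosome ends, since 5 of the 10 other chromosomes had a lower value than chromosome 4 in their first 7 windows and 2 of the 10 had a lower value than chromosome 10 in their first 6. This measure was chosen after the counts had been seen.

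The result on density also depended on which part of the long arm was compared. For this, a stretch of the short arm's length was taken from the start of the long arm, 4 Mb beyond the short arm. On chromosome 4 this stretch contains the 2 sparse windows, and the ratio of short arm to stretch was 1.49 (1.23 to 1.81). The same comparison on chromosome 10 gave 0.901 (0.744 to 1.09), with the higher density on the long arm.

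**Figure D2:**
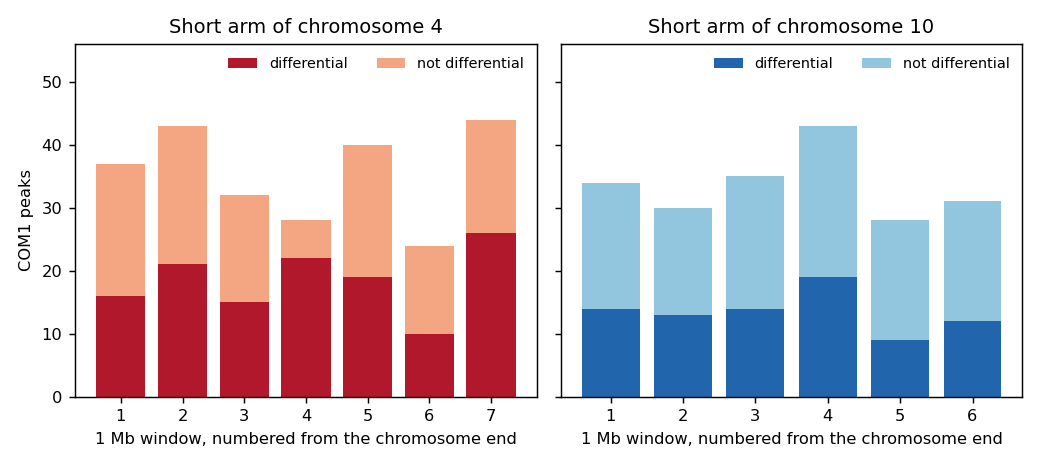
COM1 peaks per full 1 Mb window along the short arms of chromosome 4 (7 windows) and chromosome 10 (6 windows), numbered from the chromosome end on the x axis; the dark part of each bar counts differential peaks. Window 4 of chromosome 4 stands out with 22 differential peaks among 28.

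Gaps under 5 kb between neighboring peaks made up a smaller share on the short arms than on the long arms. For chromosome 10 the interval of the difference excluded 0. Of the gaps between neighbors on the short arm of chromosome 10, 46 of 209 were under 5 kb (22.0%), compared with 127 of 408 on its long arm (31.1%). The difference was -9.12 percentage points (Newcombe interval -16.0 to -1.66). On chromosome 4, 68 of 269 gaps were under 5 kb on the short arm (25.3%) and 220 of 769 on the long arm (28.6%), a difference of -3.33 points whose interval includes 0 (-9.17 to 2.99). Against the first long-arm stretch of equal length, the difference was -0.277 points on chromosome 4 (-8.64 to 7.74) and -9.02 on chromosome 10 (-17.1 to -0.746). When peaks within 1 kb were joined first, the difference on chromosome 10 was -5.52 points and its interval included 0 (-11.9 to 1.46). Gaps under 1 kb made up 7.66% on the short arm of chromosome 10 and 12.7% on its long arm, but 12.3% and 12.4% on chromosome 4. The share of gaps under 5 kb was within the range of the other 10 chromosomes in their first stretches of equal length. For the length of chromosome 4 this range was 18.2 to 31.9%, and 3 of the 10 were lower than its short arm. For that of chromosome 10 it was 17.1 to 35.2%, and 2 of the 10 were lower.

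The typical distance between peaks differed little. The median gap was 16400 bp on the short arm of chromosome 4 and 14739 bp on its long arm, and 15017 and 13342 bp on chromosome 10. The differences of 1661 bp (-3500 to 6688) and 1675 bp (-2957 to 8491) had intervals that include 0. The longest gaps were on the long arms, which also hold more gaps. The longest one without a COM1 peak on the short arm of chromosome 4 reached from 2521045 to 2754346 (233302 bp), and the next ones from 4402061 to 4568636 (166576 bp) and from 800933 to 967201 (166269 bp). On the short arm of chromosome 10 the 3 longest were 188978 bp (5822804 to 6011781), 180719 bp (140526 to 321244) and 161589 bp (1526014 to 1687602). The longest gaps of the long arms were 392436 bp on chromosome 4 and 402289 bp on chromosome 10. Gaps over 100 kb made up 4.83% and 5.46% of the gaps on the short and long arm of chromosome 4 and 6.7% and 7.6% on chromosome 10.

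Runs of close peaks showed the same order of the arms. A run was a series of neighbors linked by gaps under 5 kb. Runs are thus built from the gaps compared above, and their order is not a separate observation. The share in runs was not a planned measure. Runs of 4 or more peaks held 9 of 270 peaks on the short arm of chromosome 4 (3.33%) and 84 of 770 on its long arm (10.9%), which is 3.27 times the share. This ratio rests on 2 runs on the short arm and 19 on the long arm and has no interval. On chromosome 10 they held 8 of 210 (3.81%) on the short arm and 40 of 409 (9.78%) on the long arm. Over the 12 chromosomes 8.73% of the COM1 peaks lay in such runs. In the first stretches of the other 10 chromosomes the share ranged from 0 to 15.9% for 7.7 Mb and from 0 to 18.1% for 6.2 Mb, and 2 of the 10 were below each short arm. The short arms were also lower with other limits on the gap. With gaps under 2 kb, no short-arm peak was in a run of 4 or more, compared with 4.81% and 4.89% on the long arms of chromosomes 4 and 10. With gaps under 10 kb the shares were 16.3% and 18.6% on the short arms and 24.9% and 27.4% on the long arms. The largest run of the short arms had 5 peaks within 6515 bp on chromosome 4 (1462823 to 1469337), of which 3 were differential. A run of 4 followed on this arm (1902033 to 1906737, 2 differential). The short arm of chromosome 10 had 2 runs of 4 peaks, located from 452140 to 460580 (3 differential) and from 6133633 to 6141311 (all 4 differential). The next place in each arm was tied, among 13 runs of 3 peaks on chromosome 4 and 5 on chromosome 10. The largest run of the long arms was on chromosome 4, with 7 peaks from 20280582 to 20294960.

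Peaks without a neighbor within 5 kb made up 56.3% of the peaks on the short arm of chromosome 4 (Wilson interval 50.3 to 62.1%) and 60.5% on that of chromosome 10 (53.7 to 66.8%). On the long arms they made up 52.9% (49.3 to 56.4%) and 47.2% (42.4 to 52.0%). These shares are read from the same gaps and are no separate observation either.

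**Figure D3:**
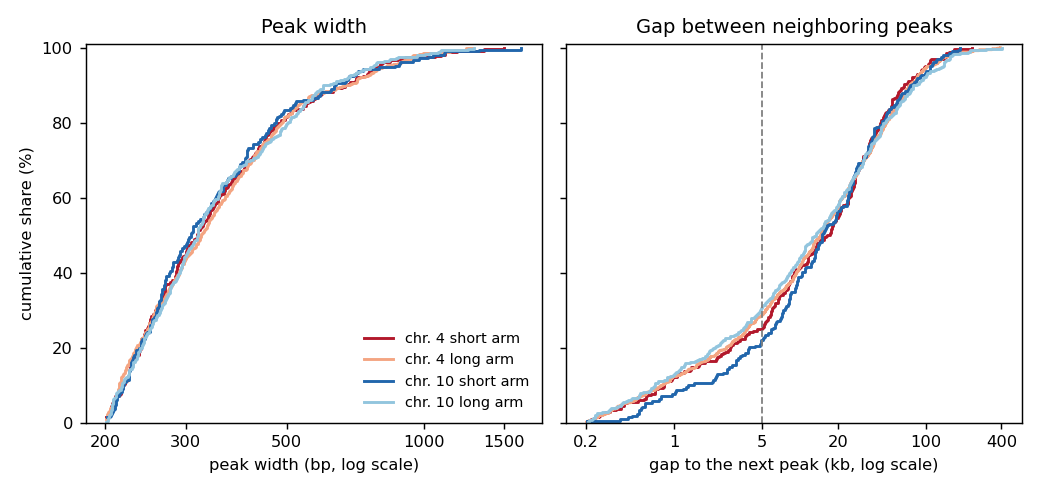
Cumulative share of peaks by width (left, bp) and of gaps between neighboring peaks by length (right, kb), both on a log axis, for the 4 arms; the dashed line marks 5 kb. The width curves run together, with medians from 308.5 to 325 bp, and the curve of the short arm of chromosome 10 lies lowest at 5 kb, with 22.0% of its gaps.

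The width of the peaks differed between short and long arms by less than the counting error. The median was 318 bp on the short arm of chromosome 4 (interquartile range 247 to 446 bp) and 325 bp on its long arm (248 to 450 bp), a difference of -7 bp (-32.9 to 17.7). On chromosome 10 the medians were 308.5 bp (251 to 435 bp) and 319 bp (251 to 459 bp), a difference of -10.5 bp (-33.3 to 23.5). Broad peaks of 800 bp or more numbered 13 of 270 (4.81%) on the short and 42 of 770 (5.45%) on the long arm of chromosome 4, and 11 of 210 (5.24%) and 16 of 409 (3.91%) on chromosome 10. Of these 24 short-arm peaks, 5 of 13 on chromosome 4 and 7 of 11 on chromosome 10 were differential, beside 22 of 42 and 11 of 16 on the long arms and 42.8% of all COM1 peaks. These numbers are too small to set the arms apart.

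The widest peak of each chromosome's 2 arms was on the short arm. For chromosome 10 it reached from 928185 to 929820 (1636 bp) and was differential. For chromosome 4 it reached from 4359512 to 4361012 (1501 bp) and was not. The widest peaks of the long arms had 1282 bp on chromosome 4 and 1288 bp on chromosome 10, both differential. The next 4 on the short arm of chromosome 4 were located from 2035539 to 2036894 (1356 bp), from 5596857 to 5598041 (1185 bp), from 60368 to 61482 (1115 bp) and from 586224 to 587333 (1110 bp), and the peaks of 1185 and 1115 bp were differential. On the short arm of chromosome 10 they were located from 3111249 to 3112572 (1324 bp), from 372804 to 373915 (1112 bp), from 4478238 to 4479345 (1108 bp) and from 1431310 to 1432358 (1049 bp), and the peaks of 1324 and 1108 bp were differential.

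The share of peaks that were differential was above that of the long arm on chromosome 4 and not on chromosome 10. The background over all COM1 peaks was 42.8%. On the short arm of chromosome 4 the share was 140 of 270 (51.9%, Wilson interval 45.9 to 57.7%), above this background and above the 320 of 770 on its long arm (41.6%, 38.1 to 45.1%). The difference was 10.3 percentage points (Newcombe interval 3.39 to 17.1). The short arm of chromosome 10 had 88 of 210 (41.9%, 35.4 to 48.7%), a share near the background and below the 190 of 409 on its long arm (46.5%, 41.7 to 51.3%), with a difference of -4.55 points (-12.6 to 3.73). Whether the difference between arms is itself different on the 2 chromosomes was not tested.

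**Figure D4:**
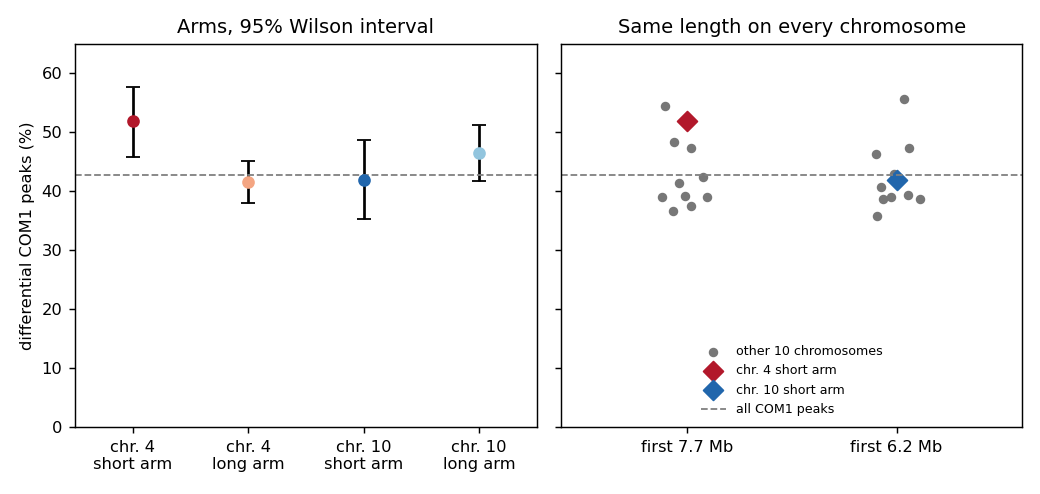
Share of COM1 peaks that are differential (y axis, %). Left, the 4 arms with 95% Wilson intervals; right, the first 7.7 and 6.2 Mb of the other 10 chromosomes (grey points) beside the short arms of chromosomes 4 and 10 (diamonds); the dashed line is the 42.8% of all COM1 peaks. The short arm of chromosome 4 (51.9%) lies above its long arm (41.6%), and one grey point of its stretch is higher, at 54.5%.

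The higher share on chromosome 4 was found in both parts of the short arm but not evenly by window. Its outer part had 73 of 138 differential peaks (52.9%) and its inner part 67 of 132 (50.8%). By window the share ranged from 41.7 to 78.6%, with a median of 47.5%. Only 2 of the 7 windows exceeded 50%, with 78.6% and 59.1%, and the others lay between 41.7 and 48.8%. The extreme was the window from 3000001 to 4000000, where 22 of 28 peaks were differential (78.6%, 60.5 to 89.8%), and it was the highest share among the 357 windows of the arms and the other 10 chromosomes. This window was chosen after its value had been seen. Without it the short arm had 118 of 242 differential peaks (48.8%, 42.5 to 55.0%), 7.20 points above the long arm (0.05 to 14.3). A row of 11 neighboring COM1 peaks that were all differential began just before this window and reached from 2990578 to 3316760. No other chromosome had a row of more than 9. Most of the row lies in this window, so that its length is not independent of the share there. The windows on the short arm of chromosome 10 ranged from 32.1 to 44.2%.

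The share on chromosome 4 was less set apart when other parts of the genome were taken for comparison. The first long-arm stretch of equal length had nearly the same share, with a difference of 1.58 points (-7.76 to 10.9). Among the first 7.7 Mb of the other 10 chromosomes the share ranged from 36.7% on chromosome 3 to 54.5% on chromosome 9, with a median of 40.3%. Only chromosome 9, 1 of the 10, exceeded chromosome 4. Whether its stretch includes the centromere was not checked. For the first 6.2 Mb it ranged from 35.9 to 55.7%, and 4 of the 10 exceeded chromosome 10.

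Neighboring peaks shared their differential status about as often as not on both short arms. Of 269 pairs of neighbors on the short arm of chromosome 4, 52.8% had the same status (46.8 to 58.7%), and of 209 on that of chromosome 10, 48.8% had (42.1 to 55.5%). Among neighbors less than 5 kb apart the shares were 32 of 68 (47.1%) and 22 of 46 (47.8%). The median widths on the short arm of chromosome 4 were 313.5 bp for differential (286 to 340) and 319 bp for other peaks (291 to 359). On the short arm of chromosome 10 they were 330.5 bp (281 to 369) and 294 bp (270 to 329), with intervals that overlap.

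More oschz1-1 peaks lay on the short arm of chromosome 4 than in the first 7.7 Mb of any of the other 10 chromosomes. The numbers were small, and 4 of the peaks on this arm lay within a span of 78.5 kb. The rank of the arm thus rested largely on that span. The oschz1-1 list had 6 peaks on the short arm of chromosome 4 (0.779 per Mb, exact Poisson interval 0.286 to 1.70) and 3 on that of chromosome 10 (0.484 per Mb, 0.0998 to 1.41). The first 7.7 Mb of the other chromosomes held 1 to 5 (median 3), and their first 6.2 Mb held 0 to 4. The long arms had 16 (0.672 per Mb) and 4 (0.309 per Mb). The ratios of 1.16 (0.371 to 3.12) and 1.57 (0.230 to 9.27) have intervals too wide to show a difference at these numbers. An oschz1-1 peak was found at 3 of 270 COM1 peaks on the short arm of chromosome 4 (1.11%, 0.379 to 3.22%) and at 1 of 210 on that of chromosome 10 (0.476%, 0.0841 to 2.65%), compared with 0.986% of all COM1 peaks. On the long arms there were 10 of 770 (1.30%) and 2 of 409 (0.489%). With 9 oschz1-1 peaks beside 480 COM1 peaks on the short arms, the length of the lists alone keeps this share low. Signal below the peak threshold is not visible in the lists.

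Of the 4 short-arm COM1 peaks with an oschz1-1 peak, 3 were located on chromosome 4 from 968409 to 968772 (364 bp), from 1000111 to 1000588 (478 bp) and from 1814711 to 1815799 (1089 bp). The fourth lay on chromosome 10 from 5646428 to 5646805 (378 bp). None of the 4 was differential. Differential regions are defined by the difference to oschz1-1, so that this count is not independent of the oschz1-1 list. The other 5 of the 9 oschz1-1 peaks had no COM1 peak. Of these, 1 on chromosome 4 lay 246 bp from the nearest COM1 peak and 1 on chromosome 10 lay 1324 bp away, whereas the remaining 3 were between 30366 and 44975 bp away. The share of oschz1-1 peaks with a COM1 peak was 4 of 9 on the short arms (44.4%, 18.9 to 73.3%), 12 of 20 on the long arms (60%, 38.7 to 78.1%) and 111 of 170 in the whole list (65.3%, 57.9 to 72.0%).

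The borders of the arms are given by position and not by the data. The last peak inside the short arm of chromosome 4 was located from 7587759 to 7588130 (372 bp, not differential), and the first outside from 7755773 to 7756018 (246 bp, not differential). On chromosome 10 these were located from 6159357 to 6159564 (208 bp) and from 6296484 to 6296723 (240 bp), both differential. Between the arms, 108 peaks (27.0 per Mb) lay on chromosome 4 and 129 (32.2 per Mb) on chromosome 10. Short arms that ended 1 Mb earlier left the ratio of density at 1.09 on chromosome 4 and 1.06 on chromosome 10.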

How the data were processed

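The deposited files give positions only. According to labels and methods, CUTADAPT was used by the authors for trimming and Bowtie2 for alignment to MSU7, and Samtools for removing duplicates and poorly mapped pairs. The labels and the results text name MACS2 as the peak caller, whereas the methods name SICER and an intersection of both replicates. The differential regions were deposited by the authors as positions, without fold changes or p-values. The methods name DiffBind for comparisons between samples.

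Here peaks were placed by their midpoint. Overlap required at least 1 bp. Densities have exact Poisson intervals, ratios exact conditional binomial intervals, shares Wilson intervals, and medians order-statistic intervals. Intervals of differences were combined by Newcombe's method. Gaps were taken between neighbors within an arm. Named regions were the 5 widest peaks, the 3 longest gaps, the 3 largest runs, the extreme windows and all peaks shared with oschz1-1. Alternatives were short arms without their first or last 1 Mb, other long-arm stretches and only wide peaks. Joined peaks, covered length and an overlap of at least 50% were also used. The last of these repeated the differences in differential share exactly and gave no separate check of them. Overlaps and gaps were tested on constructed regions, and intervals on simulated independent draws. How well the intervals hold where peaks cluster was not tested. Python 3.11.15, numpy 2.4.6, pandas 2.3.3, scipy 1.17.1 and matplotlib 3.10.9 were used. The arms, regions and measures were chosen with earlier results of these data known. No sequence or gene was placed at the peaks, because the gene table at hand is on another assembly than MSU7.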

Additional observations from a re-analysis of the deposited data

How the results depend on the processing

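For 22 results, 118 alternative values were computed. Of these, 112 stayed within the interval of the reported value or, for the spread and the runs, within 1.5 times of it. Such values can still read differently. Against the first long-arm stretch of equal length, the density ratio pooled over both chromosomes was 1.16 (1.01 to 1.33), which excludes 1. The pooled ratio of differential regions was 1.18 (1.01 to 1.38), and 1.12 (0.926 to 1.36) against that stretch. For gaps under 5 kb the pooled difference was -5.63 points (-10.1 to -0.881), and -4.79 (-10.6 to 0.988) against that stretch. Other settings differed in whether these intervals included 1 or 0. The 112 include differences in differential share under the stricter overlap rule, which repeated the reported values exactly. These were 10.3 points on chromosome 4, -4.55 on chromosome 10 and 4.24 for both together. Each arm held as many differential regions as differential peaks, so these repeats are no separate check. Comparison with the first long-arm stretch of equal length gave density ratios of 1.49 on chromosome 4 and 0.901 on chromosome 10. It gave differences in the differential share of 1.58 percentage points on chromosome 4 and of -1.53 for both chromosomes together, in place of 4.24. Without the 2 sparsest long-arm windows of chromosome 4, the variance-to-mean ratio of the short arm was 0.707 of that of the long arm, in place of 0.398. With gaps under 2 kb, the share of peaks in runs was 4.81 points higher on the long arm of chromosome 4, in place of 7.58. Among wide peaks only, the ratio of differential regions on chromosome 4 was 1.29, with an interval that includes 1 (0.960 to 1.71). The alternatives on spread, runs and the window of chromosome 4 were chosen after seeing the data. Settings that need a genome were not run. No paired analysis was possible because each genotype has 1 list that names no replicate. Leaving out a replicate was impossible likewise. Without peak heights and read numbers, all values rest on the presence and borders of peaks.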

Other observations

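The oschz1-1 peaks on the short arm of chromosome 4 were not spread along it. Of the 6 peaks, 4 lay within 78.5 kb, from 921966 to 1000438. Among the 134 spans of 4 neighboring oschz1-1 peaks on the 12 chromosomes this was the shortest. The next one that shares no peak with it was on chromosome 5, from 22041657 to 22979585, and measured 937929 bp. The first 2 of the 4, from 921966 to 922226 and from 936523 to 936835, lay inside the third-longest gap of the COM1 peaks on this arm (800933 to 967201), so that both positions were called in the mutant and not in COM1. The other 2 overlapped COM1 peaks of 364 and 478 bp. The 3 longest COM1 gaps on the short arm of chromosome 10 and the other 2 on chromosome 4 held no oschz1-1 peak. This pattern was noticed in the lists and has no replicate behind it.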
